A study of Mus musculus with 8 samples.

Results

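Kidney genes for amino acid transport were described in homozygous Pus1 mutant mice and in wild-type mice, over both sexes. The 10 genes were Slc3a1, Slc7a9, Slc7a13, Slc7a12, Slc7a7, Slc7a8, Slc6a19, Slc6a18, Slc6a20b and Slc1a1, out of 22122 genes or unnamed transcripts tested, 14284 of them with a symbol. They were chosen by name, as genes whose products move amino acids across the membrane of tubule cells. Each was read from its brightest array probe that lay well above background in at least 4 of the 8 samples. All 10 had a probe and passed that filter, 9 of them in all 8 samples; Slc7a13 passed only through the 4 males.

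Pus1 encodes pseudouridine synthase 1, which turns uridine into pseudouridine in tRNA and other RNAs. The groups were 2 mutant males, 2 wild-type males, 2 mutant females and 2 wild-type females, each sample from 1 individual. All 8 mice were 14 to 16 weeks old and on a C57BL/6J background after 5 backcross generations, and none was treated. The labels do not give the nature of the Pus1 mutation beyond the title's word knockout. Total RNA came from a frozen cross section through the whole kidney, so every level is a mean over all its cell types. A mutant and a wild-type sample that shared sex and replicate number were hybridised together, on 4 dual-colour Agilent arrays of 1 slide. Replicates 1 and 2 were female and replicates 3 and 4 male, so sex and position on the slide cannot be told apart. Dyes were swapped: mutant RNA was labelled with Cy5 for arrays 1 and 3, and with Cy3 for the other arrays.

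The kidney filters amino acids freely and then takes nearly all of them back, mostly in the proximal tubule. Carriers in the brush border bring them from the urine into the cell, and exchangers in the basolateral membrane pass them on to the blood. Several of these carriers work only in pairs: a light chain of the SLC7 family, which forms the path, is joined to a heavy chain of the SLC3 family, which brings it to the membrane. Some carriers of the SLC6 family depend instead on collectrin to reach the membrane. Loss of human SLC3A1 or SLC7A9 causes cystinuria, loss of SLC7A7 causes lysinuric protein intolerance and loss of SLC6A19 causes Hartnup disorder.

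Median spot intensity was 97 to 105 in Cy3 and 220 to 245.5 in Cy5, and of 55681 probes a sample had 26919 to 30529 well above background. Across genes, which are no independent replicates, the normalised log2 intensities of any 2 samples correlated by 0.955 to 0.995. The Pus1 probe read 7.46, 7.49, 6.92 and 7.36 in mutant replicates 1 to 4 and 10.39, 10.34, 10.003 and 10.34 in wild-type replicates 1 to 4; whether it lies in the altered part of the gene is not known. The Y-linked gene Ddx3y and the X-inactivation transcript Xist separated the samples by the labelled sex. All 11 listed markers of the early proximal tubule, such as the glucose carrier gene Slc5a2, were well above background in all 8 samples. With 4 arrays in all, the number of arrays limits the precision.

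None of the 10 transporters differed between mutants and wild type in the test over all genes. Of the 9 that were measured in both sexes, 6 were lower in males. Slc7a13, the remaining one, was well above background in males alone and entered only through them, so that its call for sex was fixed by the filter. Slc7a12 was lower in males by 16.8-fold, and Slc7a9, Slc3a1, Slc7a7, Slc7a8 and Slc6a18 were lower by 1.49-fold to 2.21-fold. The calls of Slc7a9, Slc7a7 and Slc6a18 were lost with another estimate of the correlation between the channels of an array. Slc6a19, Slc6a20b and Slc1a1 did not pass the test for sex. A difference passed if its limma p was under 0.05 after Benjamini-Hochberg adjustment for 22122 items. In the sex comparison 48% of all items passed, 28.8% lower and 19.2% higher in males. Against that background 6 members were lower in males and 3 did not pass, beside Slc7a13, whose higher call supports nothing. The median male minus female difference was −0.60 on the log2 scale over the 10 members and −0.10 over all items. With the channel medians set equal, the median over all items was −0.23, and 3278 items passed higher and 9434 lower in males, against 4250 and 6372 in the scaling used throughout.

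**Figure D1:**
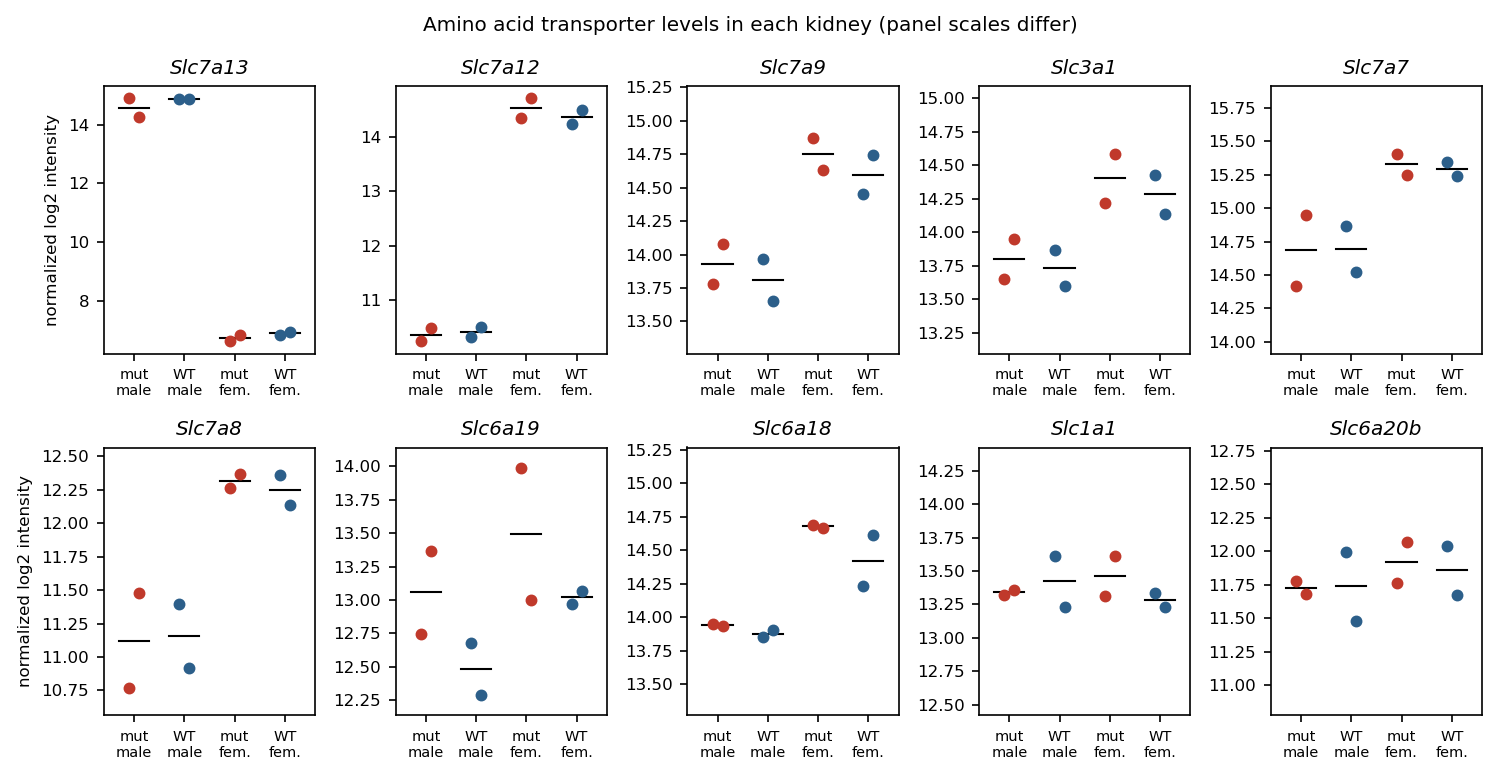
Normalised log2 intensity of each of the 10 transporter probes in every kidney, with mutant and wild-type males to the left of mutant and wild-type females in each panel. Points are single samples and bars are means of 2 samples. Panel scales differ. The Slc7a13 points of all 4 females, near 7, were not well above background.

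Slc3a1, Slc7a9 and Slc7a13 encode the parts of the brush border cystine carriers. Slc3a1 encodes the heavy chain rBAT. It joins the product of Slc7a9, a light chain that takes up cystine and basic amino acids in exchange for neutral ones, and also that of Slc7a13, a light chain for aspartate, glutamate and cystine in the last segment of the proximal tubule.

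Slc7a13 (GRCm38.p6 chr4:19818727-19842213) was measured well above background in male kidneys alone. Its log2 intensity in males was 14.90 and 14.26 in the mutants and 14.89 and 14.88 in wild type. In females it was 6.62 and 6.83 in the mutants and 6.83 and 6.95 in wild type. The sexes lay far apart, and none of the 4 female samples was well above background, whereas all 4 male samples were. The means were 14.73 ± 0.32 in males and 6.81 ± 0.14 in females (SD, n = 4 each), so the level was at least 243-fold higher in males. On the log2 scale that bound is 7.92, and it holds only for the scaling used throughout. The difference was 9.95 with Agilent's processed signals and 9.98 with the deposited value table. With the channel medians set equal it was lower, at 7.73. No test is given, because the probe was kept only through the sex in which it was high.

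Slc7a9 (chr7:35448727-35466034) went the other way. In males its log2 intensity was 13.78 and 14.08 in the mutants and 13.97 and 13.65 in wild type. In females it was 14.87 and 14.63 in the mutants and 14.45 and 14.74 in wild type. All 4 males lay below all 4 females, by 1.75-fold on average. The male minus female difference was −0.80 ± 0.14 (SE; 95% interval −1.13 to −0.48; limma adjusted p = 0.00306). This call was lost with an intraspot correlation of 0.778, a value from a model with a sex by genotype term, in place of 0.157 (adjusted p = 0.143).

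Slc3a1 (chr17:85028347-85064241), the heavy chain shared by both light chains, was lower in males too. Its male samples read 13.65 and 13.95 in the mutants and 13.87 and 13.60 in wild type. Its female samples read 14.22 and 14.59 in the mutants and 14.43 and 14.14 in wild type. Again the sexes did not overlap. The means were 13.77 ± 0.17 in males and 14.34 ± 0.20 in females (SD, n = 4 each). The difference of −0.58 ± 0.069 (SE; 95% interval −0.74 to −0.42; limma adjusted p = 0.000641) is 1.49-fold. The heavy chain thus followed the direction of Slc7a9 and not that of Slc7a13.

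The promoters of Slc3a1 and Slc7a9, and of Slc7a8 as a further gene lower in males, are shown because the genes Slc3a1, Slc7a9 and Slc7a8 moved together by sex. RefSeq sequence of GRCm38.p6 was on hand for 7 of the 10 members; Slc7a13, Slc7a12 and Slc6a18 had no entry. Each stretch is the 250 bases before the annotated start, on the gene's strand, 5′ to 3′: chr17:85028097-85028346 on the plus strand for Slc3a1, chr7:35448842-35449091 on the plus strand for Slc7a9 and chr14:54781887-54782136 on the minus strand for Slc7a8. The starts used here for Slc7a9, and in the motif search for Slc7a7 and Slc6a19, lie inside the annotated span of the gene. Capitals mark a match to the HNF4 element CAAAGTCCA, whose first base lies 39 bases before the Slc3a1 start when counted on the gene's strand.
Slc3a1: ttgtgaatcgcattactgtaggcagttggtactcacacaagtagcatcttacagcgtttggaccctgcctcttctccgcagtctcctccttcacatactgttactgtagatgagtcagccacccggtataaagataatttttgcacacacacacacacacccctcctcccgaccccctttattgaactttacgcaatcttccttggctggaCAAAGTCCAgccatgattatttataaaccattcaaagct
Slc7a9: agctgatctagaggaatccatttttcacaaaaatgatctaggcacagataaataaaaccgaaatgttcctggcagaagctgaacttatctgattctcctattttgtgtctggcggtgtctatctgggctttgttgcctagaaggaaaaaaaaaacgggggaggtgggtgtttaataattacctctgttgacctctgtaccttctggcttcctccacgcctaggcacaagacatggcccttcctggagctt
Slc7a8: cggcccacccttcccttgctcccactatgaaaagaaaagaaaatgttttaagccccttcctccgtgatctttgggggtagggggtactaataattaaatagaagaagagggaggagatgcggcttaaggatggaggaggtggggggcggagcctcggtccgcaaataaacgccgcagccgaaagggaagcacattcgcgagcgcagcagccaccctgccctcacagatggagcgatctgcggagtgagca
The windows of the 7 members were searched on both strands for 2 motifs. The HNF4 element was found in the Slc3a1 window alone, against 0.384% of 32851 promoter windows of the same length. The STAT5 and BCL6 element TTCNNNGAA matched no member, against 7.02% of windows. A match describes letters in the window and is not a measured binding site.

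Slc7a12 encodes an exchanger of small neutral amino acids that is not known to pair with either heavy chain. The gene lies at chr3:14480697-14505819. Its log2 intensity in males was 10.24 and 10.48 in the mutants and 10.31 and 10.49 in wild type. In females it was 14.35 and 14.72 in the mutants and 14.24 and 14.50 in wild type. The gap between the sexes was many times the spread within either, and the probe was well above background in all 8 samples. Means were 10.38 ± 0.13 in males and 14.45 ± 0.20 in females (SD, n = 4 each). Males were thus lower by 16.8-fold (log2 difference −4.07 ± 0.13 SE; limma adjusted p = 5.84e-06). Only 4 of the 22122 items had a lower male minus female difference. Slc7a13 and Slc7a12, both members of the SLC7 family, thus lay in opposite directions by sex.

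Slc7a7 and Slc7a8 encode basolateral light chains that pair with the heavy chain of Slc3a2. The Slc7a7 product (chr14:54369442-54420068) exports basic amino acids to the blood. Slc7a7 read 14.42 and 14.95 in mutant males and 14.87 and 14.52 in wild-type males. In females it read 15.40 and 15.25 in mutants and 15.34 and 15.24 in wild type. The female samples lay close together and above every male sample. The difference was −0.62 ± 0.13 (SE; limma adjusted p = 0.00605), or 1.54-fold, and was not called at the intraspot correlation of 0.778 (adjusted p = 0.175).

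Slc7a8 (chr14:54722215-54781886), whose product exchanges neutral amino acids, showed the wider gap of the pair. It read 10.76 and 11.48 in mutant males and 11.40 and 10.92 in wild-type males. The female values were 12.27 and 12.37 in mutants and 12.36 and 12.14 in wild type. Males averaged 11.14 ± 0.35 and females 12.28 ± 0.11 (SD, n = 4 each), with no overlap. The difference was −1.14 ± 0.12 (SE; 95% interval −1.43 to −0.86; limma adjusted p = 0.000406), which is 2.21-fold. Of all items, 7.39% had a sex difference of at least 1 on the log2 scale in either direction. Slc3a2 itself, the heavy chain of both, was also lower in males, with means of 13.92 ± 0.29 in males and 14.90 ± 0.25 in females (SD, n = 4 each) and a difference of −0.98 ± 0.085 (SE; limma adjusted p = 0.000155).

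Slc6a19, Slc6a18 and Slc6a20b encode sodium-driven carriers of the brush border. The Slc6a19 product is the main carrier of neutral amino acids, that of Slc6a18 carries neutral amino acids such as glycine, and Slc6a20b is a paralog of the gene for the proline carrier, Slc6a20a. Slc6a18 (chr13:73661750-73678023) and Slc6a19 (chr13:73679745-73700780) are neighbours on the chromosome.

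Slc6a18 read 13.95 and 13.94 in mutant males and 13.85 and 13.91 in wild-type males. Its female values were 14.69 and 14.67 in mutants and 14.23 and 14.61 in wild type. The 4 males were nearly identical and all lay below the females. The difference of −0.64 ± 0.098 (SE; limma adjusted p = 0.00181) is 1.56-fold, and a second, dimmer probe of the gene gave −0.55. At the intraspot correlation of 0.778 the call was lost (adjusted p = 0.0585).

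Slc6a19 had the largest SD of the 10 members within either sex. It read 12.75 and 13.37 in mutant males and 12.68 and 12.29 in wild-type males. In females it read 13.99 and 13.002 in mutants and 12.97 and 13.07 in wild type. The sexes overlapped, with means of 12.77 ± 0.45 in males and 13.26 ± 0.49 in females (SD, n = 4 each). The difference was −0.49 ± 0.26 (SE; 95% interval −1.10 to 0.13; limma adjusted p = 0.163). It was −0.27 without replicate 1 and −0.71 without replicate 2, and passed in neither case. It did pass with the channel medians set equal (−0.79, adjusted p = 0.0423) and without a dye term (adjusted p = 0.0384).

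Slc6a20b (chr9:123593823-123632538) read 11.77 and 11.68 in mutant males and 11.99 and 11.48 in wild-type males. In females it read 11.76 and 12.07 in mutants and 12.04 and 11.67 in wild type. The sexes overlapped, and the difference was −0.16 ± 0.11 (SE; 95% interval −0.41 to 0.10; limma adjusted p = 0.265). It was −0.31 without replicate 3 and −0.0032 without replicate 4. With the channel medians set equal it was −0.44 and passed (adjusted p = 0.0166). Whether the probe tells Slc6a20b from Slc6a20a was not tested.

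Slc1a1 (chr19:28835135-28913960) encodes the brush border carrier of glutamate and aspartate. It read 13.32 and 13.36 in mutant males and 13.61 and 13.23 in wild-type males. In females it read 13.31 and 13.61 in mutants and 13.34 and 13.23 in wild type. All 8 values lay within a narrow band and the sexes overlapped fully. The difference was 0.01 ± 0.10 (SE; 95% interval −0.23 to 0.24; limma adjusted p = 0.957). Its sign depended on the scaling, since the difference was −0.30 with the channel medians set equal (adjusted p = 0.0599).

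**Figure D2:**
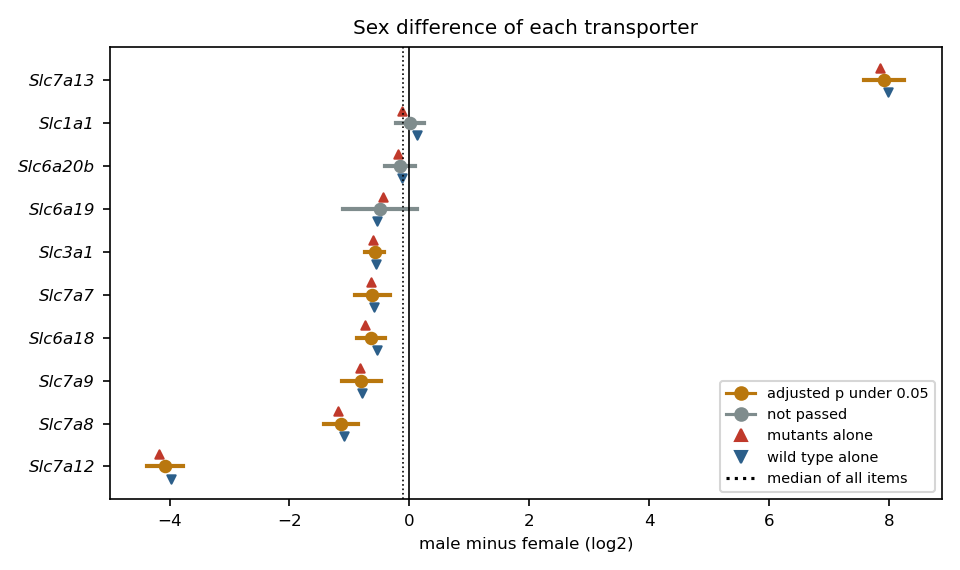
Male minus female difference of each transporter on the log2 scale, from highest to lowest, with its 95% interval. Triangles give the difference within mutants alone and within wild type alone, each from 2 males and 2 females, and the dotted line marks the median of all 22122 items at −0.10. Slc7a13 lies at 7.92, which in the scaling used is only a lower bound because no female sample was well above background. Slc7a12 lies at −4.07.

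Among the 9 members measured in both sexes, the sexes did not overlap for 6, all lower in males; among all items they did not overlap for 43%, which were 25% lower and 18% higher in males. Of 22122 items, 1.07% had a lower male minus female difference than Slc7a8, 3.07% a lower one than Slc7a9 and 8.02% a lower one than Slc3a1. Slc7a7 and Slc6a18 stood at 6.57% and 5.96%. The correlation between the channels of an array was also estimated by a model with a sex by genotype term (0.778 in place of 0.157). With it, Slc7a12, Slc3a1 and Slc7a8 passed, beside Slc7a13, whose call was fixed by the filter. Under that setting 14.5% of all items passed. With each array averaged to 1 value, 2 male against 2 female arrays, the count was 7, Slc7a13 included. In that setting 43.8% of all items passed.

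The study compared mutants with wild type, and in that comparison no member passed: 0 of 10 by the limma adjusted p, and 0 of 10 at an unadjusted p under 0.05, against 0.0271% and 4.47% of all items. For no member did the mutant and wild-type samples separate, as they did for 0.655% of items. The median log2 ratio of mutant over wild type was 0.05 over the members. Over all items it was −0.0045, with a median standard error of 0.081.

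Slc6a19 had the largest ratio. On arrays 1 to 4 its log2 ratio of mutant over wild type was 1.02, −0.07, 0.07 and 1.08, so 1 pair of each sex was about 1 unit higher in the mutant and the other pair of each sex was nearly equal. The fitted ratio was 0.52 ± 0.23 (SE; 95% interval −0.03 to 1.08; limma adjusted p = 0.98). It was 0.29 without replicate 1 and 0.24 without replicate 4, and 0.81 without replicate 2 and 0.76 without replicate 3.

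Slc7a13 had the lowest ratio, −0.24 ± 0.10 (SE; 95% interval −0.49 to 0.02; limma adjusted p = 0.98). Its array ratios of −0.21 and −0.12 in females come from spots that were not well above background. In males, where the gene was measured, the ratios were 0.01 and −0.62, the second from mutant replicate 4 at 14.26. Processed signals gave a fitted ratio of −0.78 and the deposited value table −0.80, neither of which passed.

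Slc6a18 was the single member whose 4 array ratios had 1 sign, at 0.46, 0.06, 0.10 and 0.03; among all items 8.15% did. Its fitted ratio was 0.16 ± 0.086 (SE; 95% interval −0.05 to 0.37), while its second probe averaged −0.04. Without replicate 1 the ratio was 0.0726 and without replicate 3 it was 0.25. For Slc7a9 the ratios were 0.42, −0.11, −0.19 and 0.43, and the fitted value was 0.14 ± 0.14. For Slc7a12 they were 0.11, 0.22, −0.07 and −0.02, and the fitted value was 0.06 ± 0.081. Slc7a7 gave 0.06, 0.01, −0.45 and 0.42, and a fitted 0.01 ± 0.12. The ratios of Slc7a9, Slc7a12 and Slc7a7 changed sign between pairs of mice. Among the listed markers of the first proximal tubule segments, the median ratio was 0.41 on array 1. It was −0.07, −0.04 and 0.11 on arrays 2 to 4. Markers of the last segment had a median of −0.02 on array 1. The part of such a shift in the member ratios was not tested.

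In 4 members the sign of the ratio followed the dye of the mutant sample on all 4 arrays, as it did in 34.3% of all items. The ratios of Slc3a1 were −0.21, 0.45, −0.22 and 0.35. Those of Slc7a8 were −0.09, 0.23, −0.63 and 0.56. Those of Slc1a1 and Slc6a20b ran likewise between −0.29 and 0.40, negative where the mutant carried Cy5 and positive where it carried Cy3. The dye term of the fit takes up such a gap, and the fitted ratios were 0.09 ± 0.070 for Slc3a1, 0.02 ± 0.11 for Slc7a8, 0.05 ± 0.087 for Slc1a1 and 0.02 ± 0.075 for Slc6a20b (SE).

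**Figure D3:**
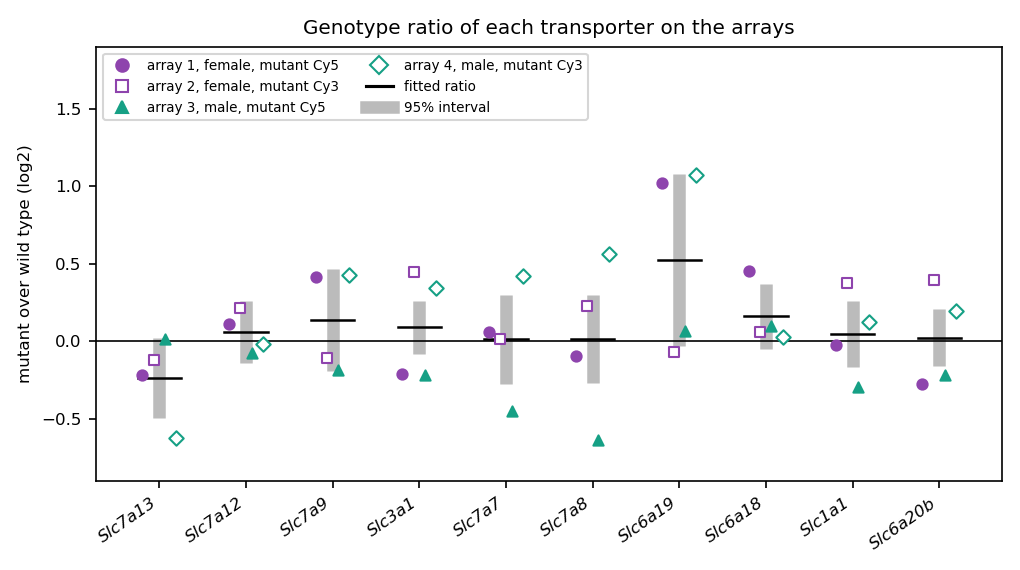
Log2 ratio of mutant over wild type for each transporter on each of the 4 arrays, with the fitted ratio (bar) and its 95% interval (grey). Filled symbols are arrays on which the mutant carried Cy5 and open symbols those on which it carried Cy3. All 10 intervals include 0, and the highest single ratios are those of Slc6a19 on arrays 1 and 4.

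The male minus female difference had the same sign within mutants as within wild type for 8 of the 9 members measured in both sexes. That of Slc7a12 was −4.18 in mutants and −3.97 in wild type. For Slc7a8 it was −1.20 in mutants and −1.09 in wild type, for Slc7a9 −0.82 in mutants and −0.79 in wild type, and for Slc6a18 −0.73 in mutants and −0.54 in wild type. For Slc7a7 it was −0.64 in mutants and −0.59 in wild type, and for Slc3a1 −0.60 in mutants and −0.55 in wild type. Slc1a1 was the exception, with −0.12 in mutants and 0.14 in wild type. Tested directly, the difference of the genotype ratio between male and female pairs passed for 0 of 10 members by the limma adjusted p and for 0 at an unadjusted p under 0.05, against 0.14% and 3.83% of all items. The estimates ran from −0.26 for Slc1a1 to 0.10 for Slc6a19. For Slc7a12 both female pairs had a positive and both male pairs a negative ratio, the single member of the 10 to split by sex, against 6.71% of all items. With 2 pairs of each sex the intervals were wide, at −0.63 to 0.21 for Slc7a12 and −0.96 to 1.15 for Slc6a19.

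Among other genes for amino acid transport, 35 of 45 listed were measured. In males 4 were higher, 11 were lower and 20 did not pass, against 19.2% higher and 28.8% lower over all items. The 11 include Slc38a4, which was kept only through the females. The median difference was −0.17. Those of the widest difference on the lower side, beside Slc3a2, were Slc16a10, a basolateral carrier of aromatic amino acids, at −0.95 ± 0.089 (SE; limma adjusted p = 0.000228) and Slc38a3, a glutamine carrier, at −0.88 ± 0.11 (adjusted p = 0.000735). Slc43a1, a carrier of large neutral amino acids, fell by 0.79 ± 0.19 in males (adjusted p = 0.0131). Slc38a4 was well above background in 4 female and no male samples, so females were at least 1.63-fold higher; it was kept only through the females and its call supports nothing. Slc6a20a, the gene of the proline carrier, fell by 0.64 ± 0.15 in males (adjusted p = 0.00965), beside the −0.16 of its paralog Slc6a20b. On the higher side were the glycine carrier gene Slc6a9 at 0.98 ± 0.12 (adjusted p = 0.000689) and Slc38a9, which encodes a lysosomal arginine sensor, at 0.61 ± 0.078 (adjusted p = 0.000875).

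Slc7a10, a further light chain gene, did not pass for sex (−0.12 ± 0.32, adjusted p = 0.775). By genotype 0 of the 35 passed, and 2 had an unadjusted p under 0.05, a share close to the 4.47% of all items. These were Slc6a20a with a log2 ratio of −0.30 and Slc7a10 with −0.60. The Slc7a10 ratios were uneven, at −1.45 and −0.65 in the female pairs and −0.0033 and −0.32 in the male pairs. Their difference between male and female pairs was 0.89 ± 0.28 (SE) and did not pass (limma adjusted p = 0.968).

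Of 19 listed names of partners, brush border enzymes and regulators of the carriers, 16 had a probe under that name, and all 16 were measured. Of these, 2 were higher in males, 1 was lower and 13 did not pass, where 48% of all items passed. Cltrn, which encodes collectrin, the partner of the Slc6a19 and Slc6a18 products in the kidney, differed by −0.17 ± 0.14 between males and females (limma adjusted p = 0.327) and by 0.07 between mutants and wild type. Ggt1, which splits glutathione in the brush border, was higher in males by 0.62 ± 0.10 (adjusted p = 0.0024), and so was the oestrogen receptor gene Esr1 by 0.52 ± 0.11 (adjusted p = 0.00686). The peptidase gene Mme fell by 0.66 ± 0.097 in males (adjusted p = 0.00153). The tubule transcription factor gene Hnf4a differed by −0.07 and did not pass.

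**Figure D4:**
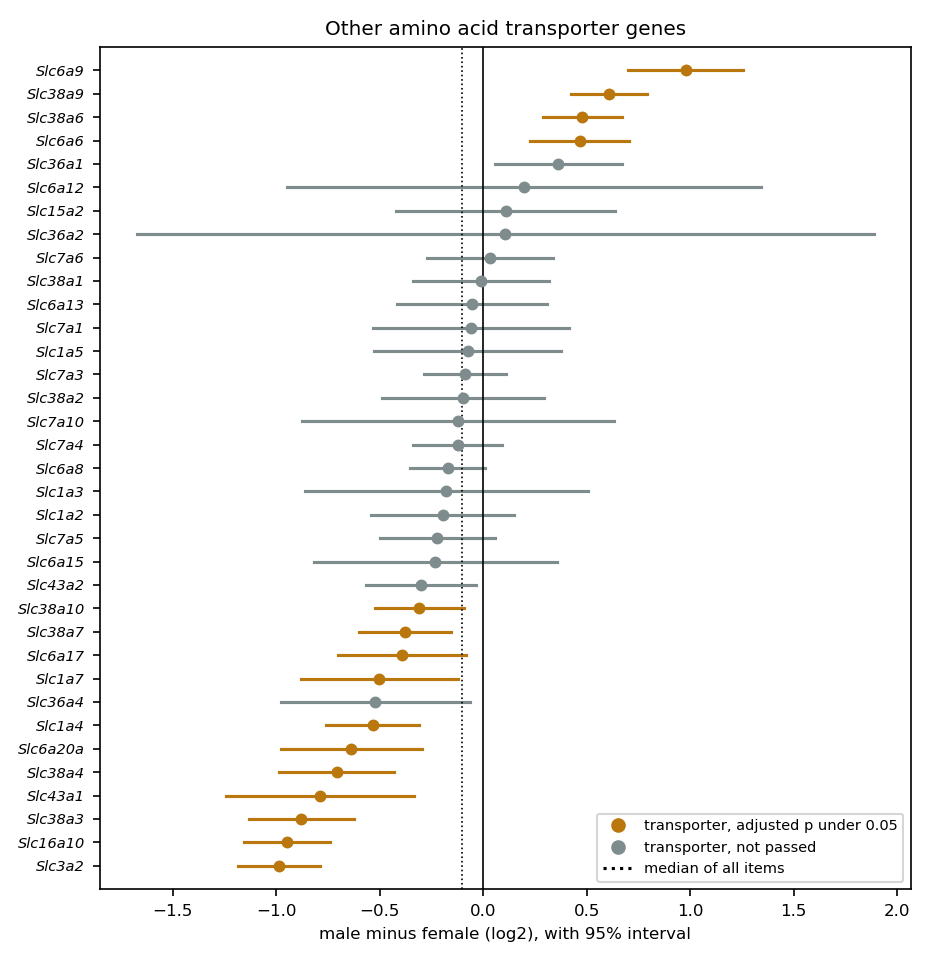
Male minus female difference on the log2 scale, with its 95% interval, of the 35 other amino acid transporter genes that were measured, from highest to lowest. Slc6a9 lies at 0.98 and Slc3a2 at −0.98, and the dotted line marks the median of all items at −0.10.

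Fewer cells of a tubule segment and less RNA per cell cannot be told apart in these samples. Of 11 measured markers of the first proximal tubule segments, 6 were lower and 1 was higher in males, with a median difference of −0.41; over all items 28.8% were lower and 19.2% higher. Their summed linear level ran from 448038 to 505006 in males and from 442897 to 579737 in females. Of 11 measured markers of the last segment, where the Slc7a13 product resides, 6 were lower and 3 higher in males, with a summed level of 451113 to 540845 in males and 526971 to 620039 in females. The 3 higher ones were Cyp7b1 at 5.40, Atp11a at 1.27 and Slco1a1. Slco1a1 was well above background in males alone and was higher there by at least 3.19 on the log2 scale. It was kept only through the males, and its call supports nothing. Among the 6 lower ones were Slc22a13 at −0.83 and Slc22a7 at −0.37. Endothelial markers summed to 18082 to 21410.9 in males and 25392.9 to 32548.8 in females, with 3 of 5 lower in males, and 4 of 4 measured immune markers were lower in males. The part of these markers in the transporter differences was not tested.

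Markers of perirenal fat differed within pairs of mice. For 10 measured fat genes of 12 listed, the median log2 ratio of mutant over wild type was −1.68 and −1.85 in the female pairs and 1.904 and 0.51 in the male pairs. Their summed level was 43158 to 170684 in mutants and 36636 to 364481 in wild type, and none was at 0. None of the 10 passed by genotype. For the difference of the ratio between the sexes 7 passed, against 0.14% of all items. No item at all passed that test with processed signals, with an offset of 16, without the dye term or without the replicate block. No member had a ratio that was negative in both female pairs and positive in both male pairs. Of the other listed transporters, Slc36a2, Slc43a1, Slc1a5, Slc1a7 and Slc7a6 did. The Slc7a6 probe was well above background in only 2 of the 4 females. Over all items, 6.71% had ratios that split by sex in 1 direction or the other. Slc36a2 had −1.49 and −1.16 in the female pairs and 2.19 and 0.05 in the male pairs. Slc43a1 had −0.40 and −0.50 in the female pairs and 0.25 and 0.39 in the male pairs. The part of fat in the transporter ratios was not tested.

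The genes whose levels ran most like each member over the 8 samples were ranked by Pearson's r among 14274 named genes, as a description. Where a member separates the sexes, r is set mainly by that separation, and all samples share the arrays of their pair. For Slc7a13 the closest were the Y-linked genes Eif2s3y and Ddx3y (r = 0.999 each) and Fbxo17 (r = 0.997). For Slc7a12 they were Cbr1, Ssbp2 and Rbp3 (r = 0.998 for Cbr1), for Slc7a8 Colec11, Cotl1 and Nudt16l1, and for Slc3a1 Nudt14, Pcdh12 and C1qa. For Slc7a7 they were Ctdsp2, Tom1 and the basolateral glucose carrier gene Slc2a2, for Slc7a9 Il33, Itga1 and Ezh1, and for Slc6a18 Abhd17c, Ppic and Klk1b24. The 3 members without a call for sex had other neighbours: Commd3, Gm6524 and Insig1 for Slc6a19 (r = 0.977 to 0.936), Ubxn8, Pdzd11 and Actr3b for Slc6a20b (0.977 to 0.969), and Fah, Smpd2 and Hpn for Slc1a1 (0.980 to 0.935).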

How the data were processed

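Spot and local background intensities of 4 dual-colour arrays (62976 spots, 3671 of them controls) were deposited as Agilent Feature Extraction 10.7.3.1 wrote them, per the file headers. They hold median pixel intensity per channel, a processed signal and marks for spots well above background, saturated or outlying. The deposited value table holds log2 values with each probe centred on its median over the 8 samples, found by comparison with the processed signals (r 0.966 to 0.986, slope 0.985 to 1.01); its making is not stated in the sources used here, and it served as an alternative. Its column medians were −0.0219 to 0.0184.

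From the intensities, limma 3.58.1 in R 4.3.3 removed background (normexp, offset 50) and applied loess within arrays, with no weight for controls and for 191 to 252 outlier spots per array. Aquantile between arrays gave the log2 levels. Probes were named through RefSeq accessions on GRCm38.p6, and the brightest kept probe stood for a gene. Genotype was tested with limma on the 4 ratios with a dye term (2 residual degrees of freedom). Sex was tested on the 8 channels with limma's separate-channel fit (genotype, sex and dye; intraspot correlation 0.157), and sex by genotype on the 4 ratios (1 residual degree of freedom). The p-values are two-sided and adjusted over all items. "At least" folds take the dim samples' own signal or the floor of the channel, whichever is higher, where the floor is that of the dimmest probe still well above background. The scripts were tested on simulated data.

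Pairs come from the shared array. Deviations within replicates 1 to 4 correlated by 0.695, 0.684, 0.68 and 0.782, which the shared sex of each pair raises. The members and gene lists were chosen with earlier results of these data known. Named beside the members were up to 8 listed transporters with the widest called sex difference, Cltrn, Slc3a2, Slc6a20a and Slc7a10, the called partners and regulators, and the 3 genes most like each member by r. Slc36a2, Slc1a5, Slc1a7 and Slc7a6 were named for their array ratios after these were seen. Some items of the lists are not reported here. Hnf4a and the proximal tubule markers given with values were picked after their values were seen.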

Additional observations from a re-analysis of the deposited data

Results flagged for a closer look

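The chosen test for a sample far from the rest of its group was Dixon's ratio, the gap to the nearest sample over the group's range. It was above its 95% critical value in 4 of 40 groups of 4. Chance alone puts about 1 in 20 independent groups of like samples above it. The 40 groups were drawn by sex and by genotype, so they share samples and those by genotype mix the sexes. That rate is therefore only a rough guide here. Among males, Slc7a13 in mutant replicate 4 was low at 14.26, against 14.88 for the nearest male (ratio 0.964). Among females, Slc6a19 in mutant replicate 1 was high at 13.99, against 13.07 for the nearest (ratio 0.899). Slc6a18 in wild-type replicate 1 was low among females at 14.23, against 14.61 (ratio 0.833). Slc1a1 in mutant replicate 2 was high among mutants at 13.61, against 13.36 (ratio 0.859).

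The Slc7a12 ratio of mutant over wild type was positive in both female pairs (0.11 and 0.22) and negative in both male pairs (−0.07 and −0.02), which 6.71% of all items share in 1 direction or the other. The fitted difference, male minus female pairs, was −0.21 ± 0.17 (SE) and did not pass (limma adjusted p = 1.00).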

How the results depend on the processing

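The genotype count of 0 members was also found under all 13 alternatives and the sex by genotype count of 0 under all 5. The sex count of 7 includes Slc7a13, whose call was fixed by the filter, and in that fit 48% of all items passed. It was 7 without any 1 replicate (range 7 to 7). With channel medians set equal it was 9, where 57.5% of all items passed. Without the dye term it was 8, where 55.3% passed. When all 8 channels had to be well above background it was 6 (which drops Slc7a13), where 50.4% passed. With the intraspot correlation of 0.778 it was 4, where 14.5% passed. Without the replicate block, that is without pairing on the array, the counts were 0 for genotype, 7 for sex and 0 for sex by genotype. For sex, 52% of all items passed without the block. The block changed no call of a member. The sign of some small differences that did not pass depended on the setting, and the cause was not tested. With median centring in place of loess, the genotype ratio was −0.0059 for Slc6a20b, −0.032 for Slc7a7 and −0.017 for Slc7a8, and the sex by genotype difference was 0.0062 for Slc3a1, 0.011 for Slc7a7 and 0.0305 for Slc7a9. Processed signals gave a sex by genotype difference of 0.88 for Slc7a13. Without 1 replicate in turn, the genotype ratio ran from −0.0205 to 0.113 for Slc1a1, −0.0245 to 0.0744 for Slc6a20b, −0.115 to 0.14 for Slc7a7, −0.12 to 0.15 for Slc7a8 and −0.0115 to 0.29 for Slc7a9. The sex difference of Slc1a1 ran from −0.0803 to 0.0953 and was −0.30 with channel medians set equal. Over all items the sex count of 10622 was 3206 with the intraspot correlation of 0.778, 9553 of 37011 without the filter on dim probes and 6185 to 8327 without 1 replicate. The genotype count of 6 over all items was 0 with processed signals and with the deposited value table, 10 with median centring, 4 without the dye term and 1 to 3 without 1 replicate. The sex by genotype count of 31 was 0 with processed signals, with an offset of 16, without the dye term and without the replicate block, and 223 with median centring. With 2 arrays of each sex, sex cannot be told apart from slide position, and below the brightness of the floor only bounds can be given.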
